A study of Mus musculus with 12 samples.

Results

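Structural RNA and tRNA repeats are the families of the repeat annotation that are named for transfer RNAs, small nuclear and nucleolar RNAs, 7SK, 7SL and 4.5S RNA, and ribosomal RNA. They were chosen by name alone from the deposited repeat table, which gave 77 of 1217 families. The 77 comprised 60 tRNA families of 21 isotypes, 6 small nuclear RNA families (U1, U2, U4, U5, U6 and U7), 5 small nucleolar RNA families (U3, U8, U13, U14 and U17), 3 ribosomal RNA families (5S, LSU-rRNA_Hsa and SSU-rRNA_Hsa), 7SK, 7SLRNA and 4.5SRNA. In all 57 tRNA names that carry a triplet, the triplet is a codon of the named amino acid and not its anticodon. A name with a trailing _ is a separate family of the same isotype. A low-value filter kept 72 of the 77, and the 5 dropped were tRNA-Gln-CAA_, tRNA-His-CAY, tRNA-Leu-CTA, tRNA-Leu-TTA(m) and tRNA-Tyr-TAT.

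The values come from RNA sequencing of the mouse embryonic stem cell line E14, which derives from strain 129/Ola. The groups, with 3 libraries each, were cells in serum medium with LIF and an shRNA against Setdb1 (serum shSetdb1), the same medium with a scrambled shRNA (serum shScr), 2i medium with the shRNA against Setdb1 (2i shSetdb1), and 2i medium with the scrambled shRNA (2i shScr). The 2i medium is based on N2 and B27 and holds LIF with PD0325901, which blocks MEK, and CHIR99021, which blocks GSK3. The submitters call cells in serum primed and cells in 2i naive. All groups were infected with lentivirus, were grown without feeders, were put under 1 µg/ml puromycin 48 hours after infection and were collected after 3 days of selection. Libraries were strand-specific and depleted of ribosomal RNA, and were made from 200 to 500 ng of total RNA. The labels name neither a rescue nor another shRNA against Setdb1, so effects of Setdb1 loss and other effects of the shRNA cannot be told apart. Separate cultures are not stated for the replicates, so the p-values rest on a spread among libraries that may be technical.

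Most of these RNAs are short and lack a poly(A) tail, while the large ribosomal RNAs are long. U1, U2, U4, U5 and U6 build the spliceosome, U7 directs processing of histone messenger RNA ends, U3, U8, U13, U14 and U17 act in processing ribosomal RNA in the nucleolus, 7SK holds the elongation kinase P-TEFb in an inactive particle, and 7SL is the RNA of the signal recognition particle. RNA polymerase III makes 7SK, 7SL, U6, 5S and the tRNAs of the nuclear genome, and RNA polymerase II makes most other U RNAs. SETDB1, the enzyme targeted here, methylates histone H3 at lysine 9 and is known for silencing endogenous retroviruses in embryonic stem cells.

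Reference sequences are shown for 7SK, U1 and U2, which held many of the reads and differed widely between libraries, as DNA letters from the GENCODE M21 transcripts of build GRCm38. The repeat table was made on mm9 and pools all annotated copies of a family, so a sequence stands for the family and not for the copies that gave the reads. Capitals mark, in 7SK, the GATC steps of the kind bound by the P-TEFb inhibitor HEXIM1. In U1 they mark ACTTACCTG, which pairs with the 5′ splice site, and AATTTGTGG, the site of the Sm protein ring. In U2 they mark GTAGTA, which pairs with the branch point, and ATTTTTGG, its Sm site.
7SK: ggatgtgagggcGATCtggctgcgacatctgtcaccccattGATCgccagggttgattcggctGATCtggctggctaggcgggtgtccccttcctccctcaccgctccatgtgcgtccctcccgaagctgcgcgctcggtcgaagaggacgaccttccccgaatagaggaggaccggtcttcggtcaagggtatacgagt
U1: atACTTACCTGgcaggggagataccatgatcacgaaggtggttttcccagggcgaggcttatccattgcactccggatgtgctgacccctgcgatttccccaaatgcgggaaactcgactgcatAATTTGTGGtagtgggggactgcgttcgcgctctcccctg
U2: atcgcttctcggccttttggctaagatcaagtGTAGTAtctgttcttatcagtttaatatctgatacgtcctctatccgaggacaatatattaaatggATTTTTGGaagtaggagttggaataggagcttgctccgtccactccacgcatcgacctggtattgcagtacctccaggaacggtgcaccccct
The 7SK stretch is the first 200 of the 331 bases of Rn7sk, at chr9:78175434-78175633 on the minus strand, and no other annotated transcript has the full sequence. The U1 sequence is that of Rnu1a1, 164 bases at chr11:87422867-87423030 on the plus strand, shared by 7 annotated transcripts. The U2 sequence is that of Rnu2-10, 191 bases at chr11:101658238-101658428 on the plus strand, shared by 4. Motifs were searched on the RNA strand only, and none of them overlap each other. GATC occurred 3 times in the whole of 7SK and at least once in 33.2% of the 3883 annotated transcripts of small nuclear, nucleolar, Cajal body, ribosomal and miscellaneous RNA and ribozymes. ACTTACCTG was in 1.49% of them, AATTTGTGG in 1.7%, GTAGTA in 2.42% and ATTTTTGG in 0.747%.

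Knockdown was checked on Setdb1, which had 418, 379 and 409 normalised reads in serum shSetdb1, against 2959, 2237 and 1587 in serum shScr. It had 837, 610 and 340 in 2i shSetdb1, against 3607, 2724 and 2253 in 2i shScr. The log2 differences were -2.33 in serum (SE 0.33, limma adjusted p = 0.00219) and -2.24 in 2i (SE 0.33, limma adjusted p = 0.00173). The 8 embryonic stem cell markers summed to 32996 to 47473 normalised reads per library, while fibroblast markers summed to 6 to 105, primitive endoderm markers to 0 to 74 and the 3 trophoblast markers in the table to 0 to 90, with 1 trophoblast marker at 0 in every library. Libraries held 4821181 to 15509401 gene reads and 4407665 to 8962913 repeat reads. One library stood apart: replicate 3 of 2i shSetdb1 had the fewest gene reads, and its reads of the 77 families came to 1.07 per gene read, against 0.0715 to 0.495 in the other 11 libraries.

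The 77 families, a small part of the annotation by number, took between 15.3 and 69.3% of all repeat reads of a library. In serum shSetdb1 they took 16, 15.3 and 42.4% in replicates 1, 2 and 3, against 24, 29.6 and 48% in serum shScr. In 2i shSetdb1 they took 19.7, 55.3 and 69.3%, against 31.8, 38.7 and 64.3% in 2i shScr. Replicate 3 was the highest of its group in all 4 groups, and the groups overlapped in both media. The means were 24.6 ± 15.4% in serum shSetdb1 and 33.9 ± 12.6% in serum shScr, and 48.1 ± 25.6% in 2i shSetdb1 and 44.9 ± 17.1% in 2i shScr (SD, n = 3 each). The share thus differed more between replicates than between groups.

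**Figure D1:**
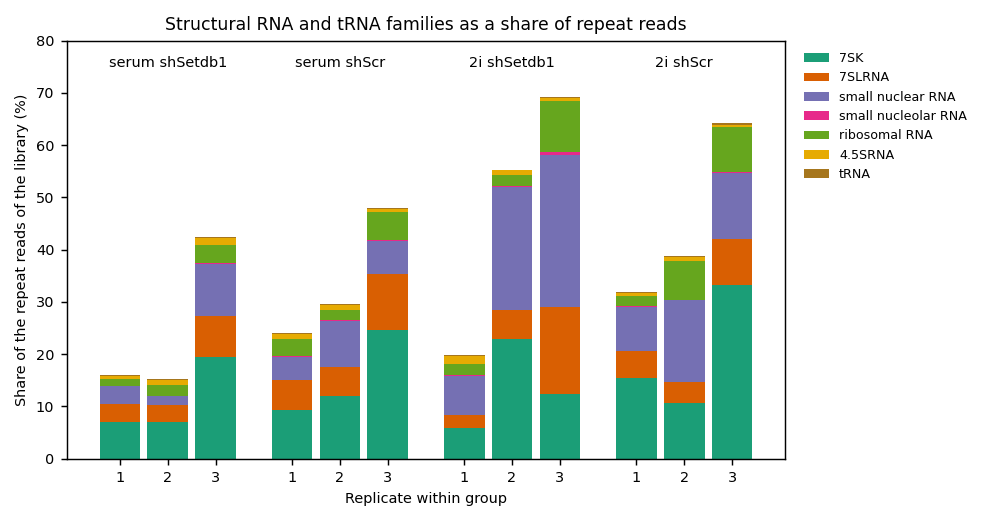
Share of the repeat reads of each library taken by the 77 structural RNA and tRNA families, stacked by class, with replicates 1 to 3 of each group side by side. Bars reach 15.3 to 69.3%, replicate 3 is the tallest in every group, and tRNA, at 0.132 to 0.302%, is a thin line at the top.

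A few families held most of these reads. 7SK took 7, 6.96 and 19.4% of repeat reads in serum shSetdb1, against 9.29, 11.9 and 24.7% in serum shScr. It took 5.91, 22.8 and 12.4% in 2i shSetdb1, against 15.5, 10.7 and 33.3% in 2i shScr. The 6 small nuclear RNA families together took 3.46, 1.69 and 10% in serum shSetdb1, against 4.41, 8.81 and 6.33% in serum shScr. They took 7.38, 23.4 and 29.2% in 2i shSetdb1, against 8.39, 15.7 and 12.5% in 2i shScr. The 60 tRNA families together took 0.157, 0.189 and 0.132% in serum shSetdb1, against 0.233, 0.278 and 0.159% in serum shScr. They took 0.136, 0.189 and 0.162% in 2i shSetdb1, against 0.242, 0.187 and 0.302% in 2i shScr. Small nuclear RNA and 7SK thus ranged widely between libraries. The tRNA share was low in all 12 but varied too, from 0.132 to 0.302%. Summed tRNA normalised reads ran from 8009 in replicate 2 to 24875 in replicate 3 of 2i shScr. The reads of small nuclear RNA per read of tRNA ranged from 8.94 in replicate 2 of serum shSetdb1 to 181 in replicate 3 of 2i shSetdb1, and those of 7SK per read of tRNA from 36.8 to 156. Here and below, tRNA values are reads on annotated copies. They do not tell mature tRNA from precursors or other transcripts that hold a copy, and the ratios are not ratios of RNA amounts.

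Per base of reference transcript, U2 and 7SK had the highest medians of the 12 RNAs for which this was computed. U2 had a median over libraries of 2341 normalised reads per base (range 409 to 14156), 7SK 2048 (1127 to 8272) and 7SL 1175 (527 to 6622). U1 had a median of 576 (150 to 2569). The ranges of neighbours among these 4 RNAs overlapped. Lower down, U3 had a median of 25.7 normalised reads per base, U17 11.8, 5S 5.13, U5 4.72 and U14 3.46. U8, U13 and U7 were at 0.394, 0.376 and 0.0974. The lengths are those of 1 reference transcript each, so truncated copies of a family are not allowed for.

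Among the tRNA families, tRNA-Ser-TCY, which reads serine codons, had the highest mean, with 1520, 2821 and 1118 normalised reads in serum shSetdb1, against 2362, 3785 and 1428 in serum shScr. It had 994, 2668 and 2214 in 2i shSetdb1, against 1626, 1234 and 5002 in 2i shScr. tRNA-Ala-GCY_ had 1590, 1381 and 1360 in serum shSetdb1, against 1571, 1372 and 1551 in serum shScr, and 1277, 1222 and 1117 in 2i shSetdb1, against 1302, 1181 and 1403 in 2i shScr. The first family thus varied several-fold within a group and the second hardly at all. The other families among the 6 with the highest mean were tRNA-Gln-CAG, tRNA-Ser-TCA(m), tRNA-Glu-GAA and tRNA-Tyr-TAC. Families of near-identical tRNA sequence share reads in a way that the sources used here do not describe, so the split between them is uncertain.

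The spread between replicates was described by the SD of the deposited log2 values within groups, pooled over the 4 groups with 8 degrees of freedom. It was 1.17 for 7SK, 1.22 for 7SLRNA, a median of 1.22 for the 3 ribosomal RNA families and a median of 1.09 for the 6 small nuclear RNA families. The median was 0.64 for the 5 small nucleolar RNA families and 0.65 for the 55 kept tRNA families, and 4.5SRNA had 0.52. The 1025 other kept families had a median of 0.4. The spread differed between groups. In serum shSetdb1, serum shScr, 2i shSetdb1 and 2i shScr the median SD of small nuclear RNA was 0.89, 0.32, 1.42 and 0.58. In the same order tRNA had 0.35, 0.43, 0.61 and 0.74, and the other families 0.3, 0.31, 0.43 and 0.32. Small nuclear RNA thus spread about as much as the other families in serum shScr. A pooled SD above 0.68, which by construction 10% of the other families exceeded, was found in 31 of the 72 members, or 43.1%. These were 4 of 6 small nuclear RNA, 2 of 5 small nucleolar RNA, 3 of 3 ribosomal RNA and 20 of 55 tRNA families, with 7SK and 7SLRNA. Just inside this limit lay tRNA-Gly-GGG at 0.68, and just outside it tRNA-Thr-ACY_, also at 0.68 after rounding. The other families include names of small RNAs that the name rule did not take. Of these, HY1 (0.75), HY3 (0.962) and BC1_Mm (0.753) exceeded the limit, and HY4 (0.674) and U13_ (0.54) did not.

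At high levels the members spread more and the other families less than their medians. The 14 members with a mean log2 value of 10 or more had a median SD of 1.19, and the 287 other families at that level had 0.3. SSU-rRNA_Hsa, the small ribosomal subunit RNA and a target of the depletion step, had the widest spread at 1.46. It had 39099, 54725 and 107709 normalised reads in serum shSetdb1, against 115425, 53084 and 233682 in serum shScr. It had 57968, 78636 and 646541 in 2i shSetdb1, against 30684, 159497 and 361204 in 2i shScr. U4, the partner that keeps U6 inactive before splicing, followed at 1.44 and U17 at 1.28. The narrowest were tRNA-Ala-GCY_ at 0.11, tRNA-Ala-GCA at 0.25 and tRNA-Gln-CAA at 0.31. Of the 188 other families within 1 log2 unit of the level of tRNA-Ala-GCY_, 0.5% had a smaller SD.

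**Figure D2:**
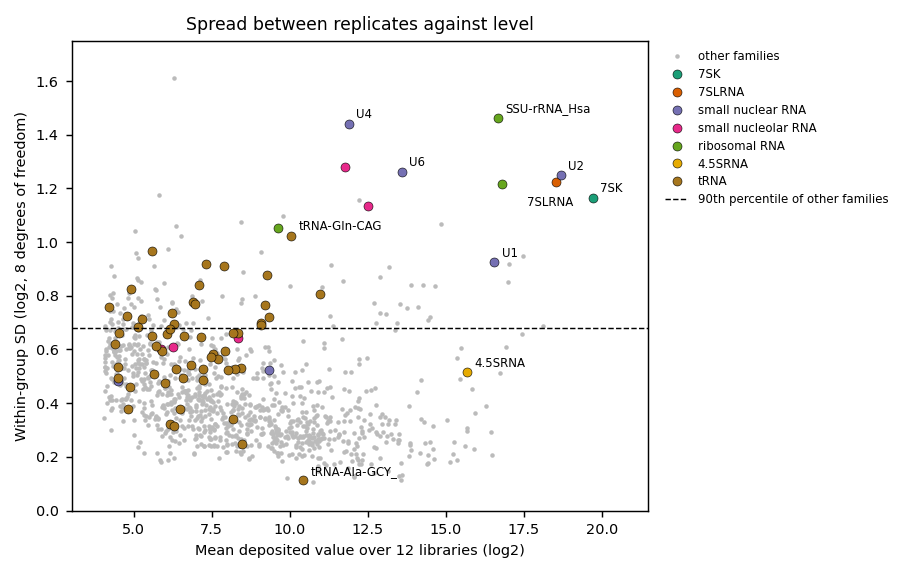
Pooled within-group SD of the deposited log2 values (vertical axis) against their mean over 12 libraries (horizontal axis), for 72 kept structural RNA and tRNA families in colour and 1025 other families in grey; the dashed line is at 0.68. U4 and U6 lie above 1.1, higher than all other families within 1 log2 unit of their level, 7SK, U2 and 7SLRNA also lie above 1.1 at levels with few or no other families, 4.5SRNA lies at 0.52 and tRNA-Ala-GCY_ at 0.11.

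The same libraries were high for many members at once. In replicate 3 of serum shSetdb1, of 2i shSetdb1 and of 2i shScr, all 11 U-named families lay above the mean of their group. In serum shScr no library stood out in this way, with 6, 5 and 6 of 11 above it in replicates 1, 2 and 3 and 33, 42 and 38 of the 72 members. In replicate 1 of 2i shSetdb1 none of the 11 lay above it, and 6 of the 72 members did. In replicate 3 of 2i shScr 63 of 72 members lay above their group mean, with 46 of the 55 tRNA families among them. The other families moved less and the other way there, with a median deviation of -0.13 against 0.72 for the members. In replicate 1 of 2i shSetdb1 the medians were 0.35 for the other families and -0.66 for the members. Likeness to 7SK was measured as Pearson's r of the within-group deviations over the 12 libraries, which share depth, library preparation and a common total. Among the members it was highest for U17 at 0.9, 7SLRNA at 0.85, tRNA-Arg-AGA at 0.83, and tRNA-Ala-GCY, tRNA-Ile-ATT and tRNA-Val-GTA at 0.82. U2 had 0.78, the tRNA families a median of 0.53, and the other families a median of -0.41, with a highest value of 0.93 and 58 of 1025 above 0.5. The size factors of the repeat table tracked the joint total of gene and repeat reads, at 18073563 to 19673872 reads per unit, a total that includes the members. The part of that scaling in the opposite deviations was not tested.

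**Figure D3:**
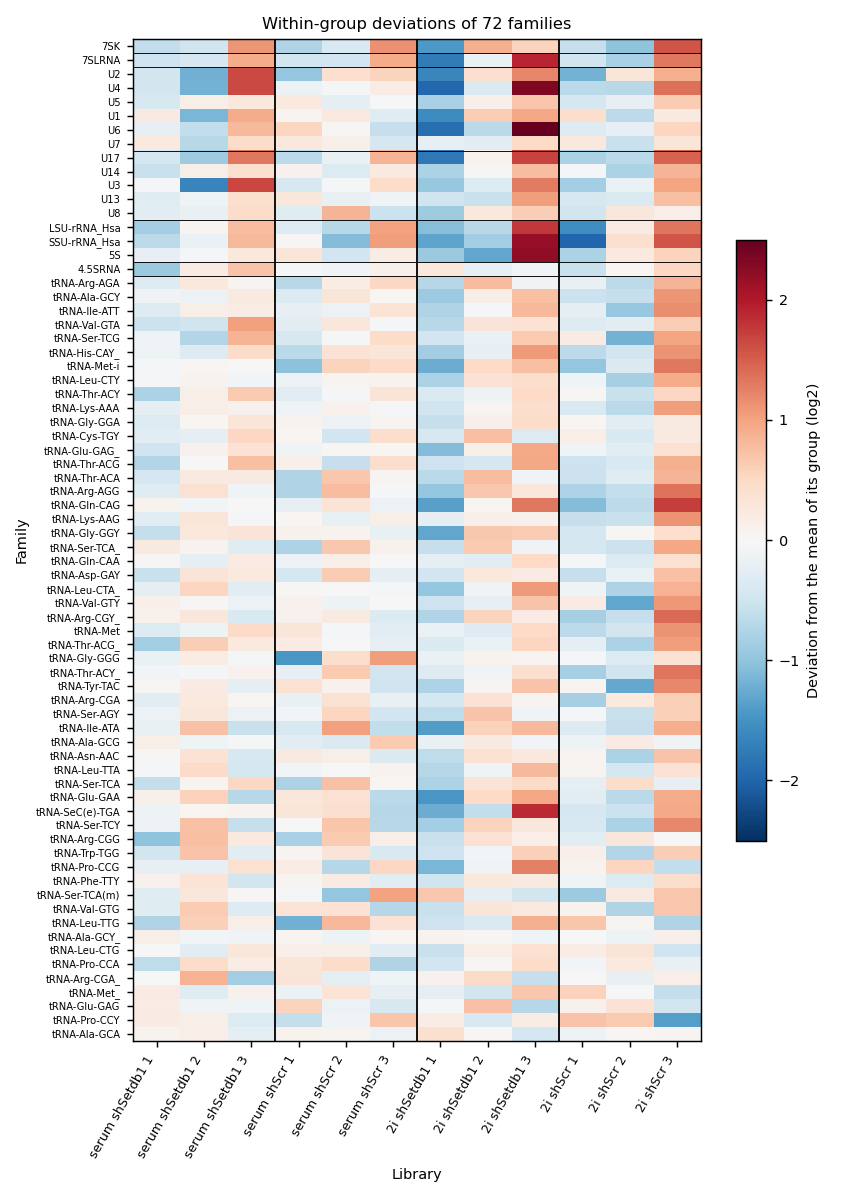
Deviation of each of the 72 kept families (rows, grouped by class and ordered by likeness to 7SK) from the mean of its group in each of the 12 libraries (columns), on the log2 scale, with red above and blue below. Replicate 3 of 2i shSetdb1 and of 2i shScr is red and replicate 1 of 2i shSetdb1 blue for most families, while tRNA-Ala-GCA and tRNA-Ala-GCY_ stay pale.

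In serum, the knockdown was set against the scrambled shRNA to ask which of these RNAs differ on loss of Setdb1. tRNA-Lys-AAA, which reads lysine AAA codons, was lower after knockdown, and no other member passed the test. It had 54.5, 77.2 and 75 normalised reads in serum shSetdb1, from 63, 83 and 76 reads, against 214, 250 and 225 in serum shScr, from 180, 262 and 223 reads. All 3 knockdown libraries lay below all 3 controls, with means of 68.9 ± 12.5 and 230 ± 18.1 (SD, n = 3 each), a fold of 0.3. The log2 difference was -1.49 (SE 0.39, 95% interval -2.31 to -0.66, limma adjusted p = 0.0467). In these bulk libraries a lower level in all cells and fewer cells with the RNA cannot be told apart. With 1 of 72 members called lower, the background over all 1097 kept families was 0.0912% called lower and 3.37% in either direction, so this family was the only one of all 1097 called lower. Its limma adjusted p was 0.113 with each library centred on the median of the other families. With 1 library left out it lay between 0.00616 and 0.187, and the call held in 4 of 12 such fits, those without replicate 1 or 3 of 2i shSetdb1 or replicate 2 or 3 of 2i shScr. tRNA-Lys-AAG, the other lysine family, had a log2 difference of -0.14 (SE 0.37, limma adjusted p = 0.97).

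Other tRNA families lay lower in serum without passing the test. Of the 55 kept, 14 had all 3 knockdown libraries below all 3 controls and none had the reverse, against backgrounds of 4.83% of all kept families lower and 9.75% higher in this sense. At an unadjusted p under 0.05 there were 5 members, all lower tRNA families, against 1.46% of all families. tRNA-Gln-CAG had 501, 451 and 469 normalised reads in serum shSetdb1, against 1001, 1485 and 1042 in serum shScr (log2 difference -1.25, SE 0.62, limma adjusted p = 0.592). tRNA-Glu-GAA had 336, 464 and 182, against 926, 998 and 468 (log2 difference -1.25, SE 0.54, limma adjusted p = 0.438). These families share libraries and are not independent of one another. Their SE rests on a spread pooled over the 4 groups, with the 2i libraries included. For tRNA-Gln-CAG the within-group SD was 0.07 in serum shSetdb1 and 0.31 in serum shScr. It was 1.34 in 2i shSetdb1 and 1.51 in 2i shScr, so its adjusted p largely reflects spread in 2i. The highest log2 differences were those of tRNA-Pro-CCY at 0.66 and tRNA-Met_ at 0.43, both with overlapping groups. Summed over the 60 families, tRNA had 9137, 12066 and 9126 normalised reads in serum shSetdb1, against 14379, 17190 and 13830 in serum shScr. The groups did not overlap in this sum, and did overlap as a share of repeat reads. The median log2 difference of the tRNA families was -0.45, beside -0.01 for the other families, and lay between -0.57 and -0.46 under the 3 other scalings.

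Same-numbered serum libraries deviated together over genes, so the replicate number was also fitted as a block within medium. Then 4 members were called lower, tRNA-Lys-AAA, tRNA-Gln-CAG, tRNA-Glu-GAA and tRNA-Ile-ATT, with limma adjusted p of 0.00116, 0.00026, 0.000945 and 0.00227 in that order. They were the only families called lower in that fit, 0.365% of the 1097. That fit weighs a prior of 192 degrees of freedom against 4 residual ones. With the number as a block over all 12 libraries 2 members were called lower, tRNA-Lys-AAA and tRNA-Ile-ATT, again the only families called lower, 0.182% of the 1097.

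Small nuclear RNA and 7SK overlapped between the serum groups. 7SK had 406930, 443775 and 1337761 normalised reads in serum shSetdb1, against 573625, 737994 and 2150631 in serum shScr. Replicate 3 was high in both groups and the groups overlapped (log2 difference -0.64, SE 0.85, 95% interval -2.43 to 1.15, limma adjusted p = 0.924). Each knockdown library lay below the control of the same number, but 7SK was not called with either replicate block. The fold of the means was 0.632, and it became 0.369 without replicate 3 of serum shSetdb1 and 1.11 without replicate 3 of serum shScr. Both omissions leave a high replicate 3 without its same-numbered partner. U2 had 131061, 78103 and 570978, against 162449, 425969 and 468386 (log2 difference -0.82, SE 0.84, limma adjusted p = 0.924). U6 had 5410, 4086 and 11013, against 11954, 8372 and 5522 (log2 difference -0.39, SE 0.76, limma adjusted p = 0.94). The fold of U2, 0.738, was 0.297 without replicate 3 of serum shSetdb1. The median log2 difference was -0.54 for small nuclear RNA and -0.43 for the 11 U-named families. 7SLRNA had a log2 difference of -0.77 (SE 0.82), LSU-rRNA_Hsa -0.77 (SE 0.77), SSU-rRNA_Hsa -0.88 (SE 0.9) and 5S -0.4 (SE 0.64), all with overlapping groups. 7SLRNA and LSU-rRNA_Hsa were lower in each same-numbered pair, while SSU-rRNA_Hsa and 5S were not. U5 lay at -0.22 (SE 0.36), U14 at -0.19 (SE 0.43), U7 at -0.14 (SE 0.43) and U8 at 0.08 (SE 0.45), and these 4 families also overlapped.

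In 2i, 4.5SRNA and tRNA-Leu-CTG were higher after knockdown, which made 2 of 72 members, against a background of 10.4% of all kept families called higher and 10.5% called in either direction. 4.5SRNA, a small RNA of rodents made by RNA polymerase III, had 99831, 72113 and 78986 normalised reads in 2i shSetdb1, against 20322, 30755 and 42283 in 2i shScr. The groups did not overlap, with means of 83643 ± 14434 and 31120 ± 10985 (SD, n = 3 each), a fold of 2.69. The log2 difference was 1.48 (SE 0.4, 95% interval 0.63 to 2.32, limma adjusted p = 0.0265). Its limma adjusted p was 0.103 with libraries centred. It was 0.0614 without replicate 1 of 2i shSetdb1, 0.149 without replicate 1 of 2i shScr and 0.0609 without replicate 2 of 2i shScr, and at most 0.0447 in the other 9 fits with 1 library left out. tRNA-Leu-CTG, which reads a leucine codon, had 13.7, 33.1 and 41.6 normalised reads in 2i shSetdb1, from 15, 36 and 26 reads, against 2.72, 3.86 and 0 in 2i shScr, from 3, 4 and 0 reads. Its log2 difference was 1.54 (SE 0.38, 95% interval 0.73 to 2.35, limma adjusted p = 0.0142). The limma adjusted p was 0.0813 with libraries centred, 0.0565 without replicate 2 of 2i shSetdb1 and 0.0726 without replicate 3 of 2i shScr. The ratio of its means, 13.4, rests on 7 reads in the 3 libraries of 2i shScr, and came to 8.95 without replicate 3 of that group and 21.6 without its replicate 2. Beside both called families, tRNA-Ala-GCG and tRNA-Pro-CCA made 4 members with all knockdown libraries above all controls, against 22.3% of all families, and tRNA-Arg-CGA_ was the 1 with all below, against 1.46%. Scaling moved the middle of the whole table here: centring lowered the median log2 difference of all families by 0.34 and gave 74 families called higher and 34 lower, quantile normalisation 74 and 82, and voom 70 and 11, against 114 and 1 as deposited.

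**Figure D4:**
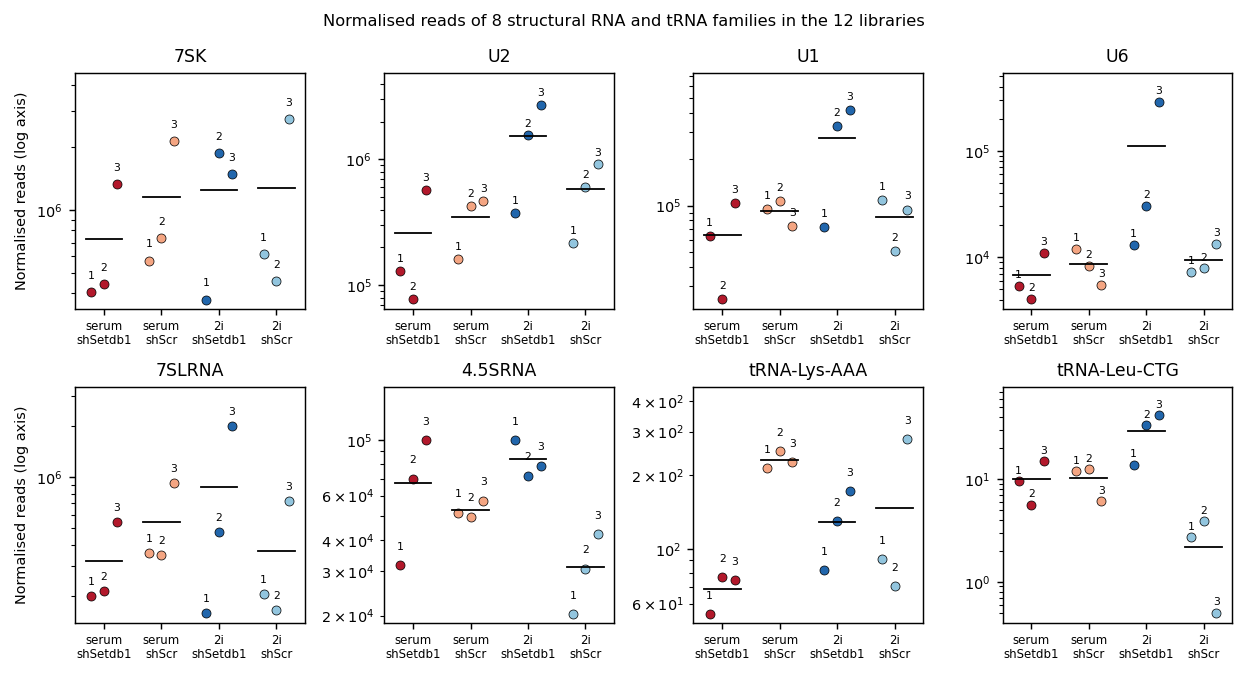
Normalised reads (log axis) of 8 families in each of the 12 libraries, with the replicate number above each point and a line at the group mean; the 0 reads of tRNA-Leu-CTG in replicate 3 of 2i shScr are drawn at 0.5. tRNA-Lys-AAA is lower in all serum shSetdb1 libraries than in serum shScr, 4.5SRNA and tRNA-Leu-CTG are higher in all 2i shSetdb1 libraries than in 2i shScr, and the U families and 7SK overlap between groups.

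No U family was called in the 2i comparison as fitted without a replicate block. Their median log2 difference of 1.23 lay above those of tRNA, ribosomal RNA, 7SK and 7SLRNA and below 4.5SRNA at 1.48. U6, the catalytic RNA of the spliceosome, had 13157, 30286 and 288022 normalised reads in 2i shSetdb1, against 7299, 7886 and 13301 in 2i shScr. Replicate 3 of 2i shSetdb1 was far above all others, and replicate 1 lay below the highest control. The log2 difference was 2.41 (SE 0.76, 95% interval 0.8 to 4.01, limma adjusted p = 0.0539), and with replicate 3 of 2i shSetdb1 left out it was 1.12. The fold of the means was 11.6 with that library and 2.29 without it. With a prior for the variance that is robust to families of unusual spread, the limma adjusted p of U6 was 0.194. U4 had 4007, 12210 and 78890, against 2351, 2347 and 9858 (log2 difference 2.04, SE 0.85, limma adjusted p = 0.162). Its fold of 6.53 was 1.67 without replicate 3 of 2i shSetdb1 and 13.5 without replicate 3 of 2i shScr. U1 had 72547, 330403 and 421382, against 109012, 50774 and 94165 (log2 difference 1.43, SE 0.61, limma adjusted p = 0.173). U2 had 375455, 1554757 and 2703758, against 216503, 608452 and 913652 (log2 difference 1.24, SE 0.84, limma adjusted p = 0.435). In each of these 4 families replicate 1 was the lowest knockdown library and lay below the highest control. Without replicate 1, U6, U4 and U1 passed (limma adjusted p = 0.00286, 0.0209 and 0.0102 in that order) and the count of members called was 6. Only replicates 2 and 3 of 2i shSetdb1 then remain. The prior also narrows the SE of wide families. With all 12 libraries it was 0.76 for U6, against 1.03 from its own residuals, and 0.85 against 1.18 for U4.

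Among the nucleolar RNAs, U3, which guides early cuts of the ribosomal precursor, had a log2 difference of 1.67 (SE 0.68, limma adjusted p = 0.153) with 8922, 13562 and 42427 normalised reads in 2i shSetdb1, against 3021, 4866 and 10826 in 2i shScr. The median log2 difference was 1.33 for small nuclear RNA, 1.17 for small nucleolar RNA, 0.28 for tRNA and 0.23 for the other families. The U-named median was 0.9 after centring, 0.62 after quantile normalisation and 0.98 with voom, and lay between 0.63 and 2.05 with 1 library left out. That of tRNA was -0.06, -0.01 and 0.01 under these scalings in the same order. All 11 U-named log2 differences were above 0, as were 773 of all 1097 families as deposited. At an unadjusted p under 0.05 there were 10 members, all higher and 6 of them U-named, against 21.6% of all families. U17 had a log2 difference of 1.23 (SE 0.76), U14 1.17 (SE 0.43), U13 1.04 (SE 0.45), U5 0.64 (SE 0.36), U8 0.29 (SE 0.45) and U7 0.28 (SE 0.43). 7SK had 372908, 1876377 and 1485293 normalised reads in 2i shSetdb1, against 618000, 456950 and 2738049 in 2i shScr. Its log2 difference was 0.14 (SE 0.85, 95% interval -1.65 to 1.93, limma adjusted p = 0.948), and was -0.19 with libraries centred. The fold of the means, 0.979, became 2.32 without replicate 3 of 2i shScr. 7SLRNA had a log2 difference of 0.86 (SE 0.82), 5S 0.48 (SE 0.64), SSU-rRNA_Hsa 0.25 (SE 0.9) and LSU-rRNA_Hsa 0.12 (SE 0.77), all with overlapping groups. Reads of small nuclear RNA per read of 7SK were 1.25, 1.03 and 2.35 in 2i shSetdb1, against 0.543, 1.47 and 0.377 in 2i shScr, and the groups overlapped. At the low end lay tRNA-Arg-CGA_ at -0.81 and tRNA-Glu-GAA at -0.47.

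Whether the knockdown acted differently in the 2 media was tested as the difference of the 2 log2 differences, 2i minus serum. No member passed, and 2 of all 1097 families did (0.182%). At an unadjusted p under 0.05 there were 13 members, all on the higher side, against 8.3% of all families, and 0 members were called with a voom fit of recovered reads. The largest differences were those of U6 at 2.8 (SE 1.07, 95% interval 0.53 to 5.07, limma adjusted p = 0.49) and U4 at 2.73 (SE 1.21, limma adjusted p = 0.491). U3 had 2.36 (SE 0.97) and U1 2.16 (SE 0.87), both at a limma adjusted p of 0.491. tRNA-Lys-AAA, called in serum, had a difference of 1.48 (SE 0.55, limma adjusted p = 0.49), and in 2i alone its groups overlapped. 4.5SRNA, called in 2i, had 1.27 (SE 0.56, limma adjusted p = 0.491), with 31753, 70100 and 99775 normalised reads in serum shSetdb1, against 51299, 49544 and 57239 in serum shScr. A dependence on medium was therefore not shown for either. The lowest values were those of tRNA-Arg-CGA_ at -0.74 and tRNA-Gly-GGG at -0.51. The class medians were 2.11 for small nuclear RNA, 0.78 for 7SK, 0.74 for tRNA and 0.28 for the other families.

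**Figure D5:**
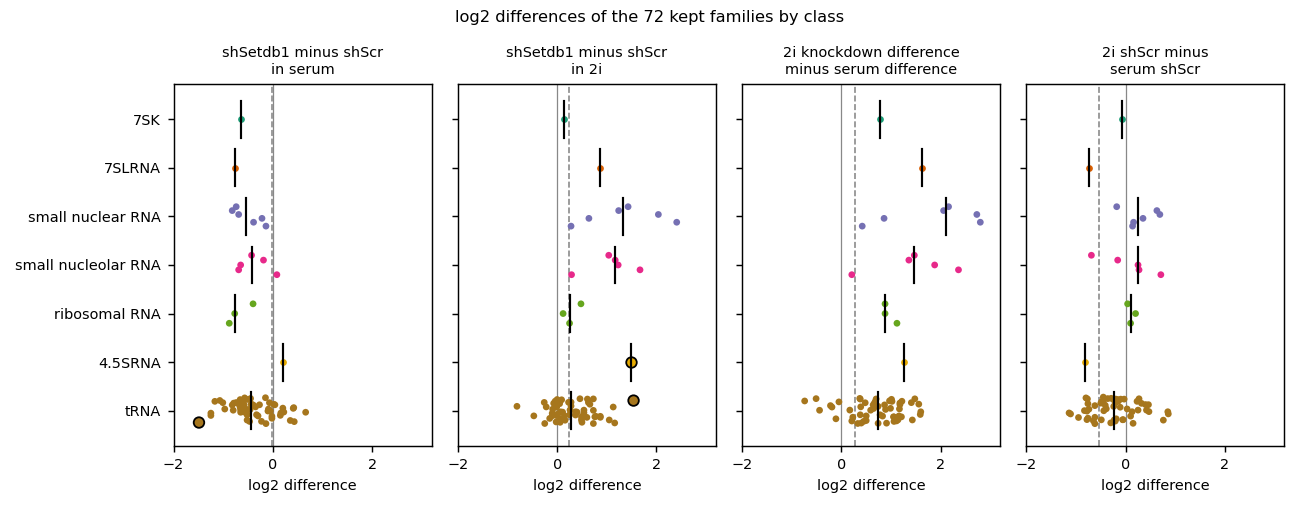
log2 differences of the 72 kept families by class (rows) in the 4 comparisons (panels); short black lines are class medians, the dashed line is the median of the 1025 other families, and points ringed in black passed limma at an adjusted p under 0.05. The ringed points are tRNA-Lys-AAA in serum and 4.5SRNA and tRNA-Leu-CTG in 2i; all 6 small nuclear RNA families lie right of the dashed line in 2i, and the tRNA median lies left of it in serum, where 11 of 55 tRNA families lie above 0.

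In control cells the media were compared without knockdown. No member passed, against 17.1% of all kept families, 6 higher and 182 lower as deposited. At an unadjusted p under 0.05 there were 5 members, all lower, against 34.7% of all families, and voom on recovered reads called 0 members. The split over all families depended on scaling, with 19 higher and 64 lower after centring, 18 higher and 16 lower after quantile normalisation and 27 higher and 7 lower with voom, and centring raised the median of all families by 0.41. The median log2 difference was -0.24 for tRNA and 0.25 for the U-named families, beside -0.54 for the other families. After centring that of tRNA was 0.17. 7SK had 618000, 456950 and 2738049 normalised reads in 2i shScr, against 573625, 737994 and 2150631 in serum shScr (log2 difference -0.08, SE 0.85, limma adjusted p = 0.953). 4.5SRNA was at 20322, 30755 and 42283 in 2i shScr, against 51299, 49544 and 57239 in serum shScr, without overlap but without a call (log2 difference -0.82, SE 0.4, limma adjusted p = 0.148). It was 1 of 7 members with all 2i libraries below all serum libraries, against 39.1% of all families. The lowest log2 differences were those of tRNA-Ser-TCA(m) at -1.14 and tRNA-Ser-TCG at -1.11, and the highest those of tRNA-Thr-ACA at 0.86 and tRNA-Arg-CGY_ at 0.85. This comparison and each knockdown comparison share their control libraries.

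Genes that make, bind or modify these RNAs were read from the gene table, in 7 lists. The lists were RNA polymerase III transcription with 33 kept genes, the 7SK particle with 11, small nuclear ribonucleoprotein and Sm proteins with 41, the SMN complex and small nuclear RNA processing with 32, the signal recognition particle with 10, tRNA processing and modification with 45, and aminoacyl-tRNA synthetases with 25. In limma 0 of them were called in any of the 4 comparisons, and voom on recovered reads called 0 as well, against a background of 0.649% of 14487 genes in the serum knockdown, 1.27% in the 2i knockdown, 0% for the difference between media and 3.62% between media in controls. In the serum knockdown 1 listed gene had an unadjusted p under 0.05, Snrpf, an Sm protein, at a log2 difference of 0.98 (SE 0.43, limma adjusted p = 0.909). In the 2i knockdown it was Tsen54, a subunit of the tRNA splicing endonuclease, at 0.8 (SE 0.37, limma adjusted p = 0.638). For the difference between media 4 genes of the small nuclear ribonucleoprotein list did so, all on the lower side, and the other lists had none. Between media in controls the tRNA processing list had 4 higher and 2 lower, the SMN list 3 lower, the RNA polymerase III and small nuclear ribonucleoprotein lists 1 higher and 1 lower each, the synthetases 1 higher, and the 7SK particle and signal recognition particle lists none. Over all genes this share was 5.09% in the serum knockdown, 7.37% in the 2i knockdown, 2.79% for the difference between media and 17.3% between media in controls. The 11 genes of the 7SK particle had log2 differences of -0.61 to -0.15 in the 2i knockdown, with a median of -0.38, beside 0.01 for all genes. None of the 11 had an unadjusted p under 0.05 there. Hexim2, which inhibits P-TEFb when bound to 7SK, was the lowest of them at -0.61 (SE 0.34, limma adjusted p = 0.788). It had 71.5, 60.9 and 19.4 normalised reads in 2i shSetdb1, against 105, 69 and 93.9 in 2i shScr, with overlapping groups. The lowest value came from the library with the fewest gene reads. Among the 2 genes of each list that differed most between media in controls, Snrnp48 and Adat2 had the smallest adjusted values. Snrnp48, a protein of the minor spliceosome, was at -1.12 (SE 0.32, limma adjusted p = 0.0647). Adat2, which edits the tRNA wobble base, was at 1.3 (SE 0.4, limma adjusted p = 0.0905). Close to it lay Rpp21 at 1.02 and Gemin5 at -1.25 (limma adjusted p = 0.0908 and 0.0926).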

How the data were processed

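Strand-specific, ribosomal-RNA-depleted libraries of 12 samples were analysed, per the labels. The authors deposited log2-scale variance-stabilised values for 26061 genes and 1217 repeat families. Tools listed in the submitters' processing notes are DESeq2 without a version, TopHat2 2.0.9 and Trim Galore 0.3.3, with build mm9. No source used here gives the counting tool, the annotation, the use of strand or the treatment of multiply mapped reads. How reads of near-identical copies were shared between families is therefore unknown.

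The transformation was inverted, and 100% of values gave whole reads within 0.01. Normalised reads are these reads divided by size factors of 0.625 to 1.155 for repeats. Each table was fitted apart with limma 3.58.1 in R 4.3.3: 4 group means, 12 libraries, mean-variance trend, two-sided, Benjamini-Hochberg over 1097 families or 14487 genes with a mean 0.5 or more above the table's lowest value, with calls at an adjusted p under 0.05. A log2 difference on this scale understates the change of families with few reads, and folds are ratios of mean normalised reads. On simulated data for the serum knockdown with 1097 families, 64% of log2 changes of 1 and 96% of changes of 2 were called. The simulated spread depended on level alone, with no deviations shared within a library. The members spread more than other families of the table (median SD 0.65 against 0.4, and 1.17 for 7SK). These rates therefore do not hold for the members, and a missing call does not exclude such changes.

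Members, lists and tests were chosen with earlier results of these data known. Families named with values are all U, 7S, 4.5S and ribosomal ones, those called, the 6 tRNA families with the highest mean, and the extremes of spread and of each comparison. tRNA-Lys-AAG, families named for likeness to 7SK, for a limit of spread, for groups that do not overlap or for a call under another fit were chosen after their values were seen. From the gene lists the genes named are the extremes of a comparison. A list of small RNA genes in the gene table could not be used, since the table holds 1 of them by name.

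Pairing by replicate number was checked on within-group deviations. In serum the correlations of same-numbered libraries were 0.58, 0.23 and 0.51 over genes and 0.21, 0.04 and 0.24 over families (0.21, 0.23 and 0.45 over the 72 kept members). In 2i they were 0.46, 0.06 and 0.52 over genes and 0.4, -0.02 and 0.46 over families (0.35, -0.17 and 0.34 over the members). Because replicate 2 of 2i was near 0 over genes, the block was given beside the serum result. Over families, replicate 2 was near 0 in both media. Alternatives were scaling, filter, voom, block, prior and leaving out each library. Some reference sequence and per-base values are not reported here.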

Additional observations from a re-analysis of the deposited data

How the results depend on the processing

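Counts of members called moved with the processing. In serum the count of 1 became 0 with centring on the other families, quantile normalisation, voom or no filter, 2 with the replicate block over all 12 libraries, with or without a robust prior, and 4 with the block within medium. It ranged from 0 to 1 when 1 library was left out. In 2i the count of 2 became 0 with centring or voom, 7 with the block over all 12 libraries (3 with a robust prior as well) and 10 with the block within medium, and ranged from 1 to 6 with 1 library left out. U3, U4, U6, U14 and U17 were among the 7, and only U14 of them among the 3. All of these were among the 10, with U1 and U2. For the difference between media the count of 0 became 2 and 7 with these blocks, and 0 with the block and robust prior. For 2i against serum in controls it became 2 with the block over all 12 libraries, also with the robust prior, and ranged from 0 to 1 with 1 library left out. In 2i the same-numbered libraries correlated for replicates 1 and 3 but hardly for replicate 2 (0.06 over genes). The block within medium could not be fitted to the comparison of media. Its prior had 192 degrees of freedom, so the SE of U6 was 0.29 there, against 0.9 from its own residuals.

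Over all families, 37 calls in serum became 63 and 72 with the blocks (63 with a robust prior) and 26 to 42 with 1 library left out. In 2i 115 became 71 to 125 with 1 left out, the 71 without replicate 1 of 2i shScr. The 2 for the difference between media became 0 with centring, quantile normalisation and voom, 1 without a filter, 6 and 21 with the blocks (5 with a robust prior), and 0 to 2 with 1 left out. The 188 for the media became 83 with centring, 34 with quantile normalisation and with voom, 323 with the block and robust prior, and 5 to 269 with 1 left out, with 6 and 5 without replicates 1 and 3 of serum shScr and 9 and 16 without replicates 1 and 3 of 2i shScr. Listed genes called between media were 9 with the block and 0 to 2 with 1 left out.

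The sign reversed under scaling for 7SK in 2i (-0.19 centred, -0.58 quantile, -0.12 voom), 7SLRNA in 2i (-0.31 quantile), U2 in 2i (0 quantile), SSU-rRNA_Hsa in 2i (-0.09 centred, -0.6 quantile), 7SK for the difference between media (-0.1 quantile) and 7SK between media (0.33 centred, 0.56 voom). With 1 library left out, ranges that cross zero were -0.16 to 0.67 for 4.5SRNA in serum; in 2i -0.36 to 0.93 for 7SK, -0.09 to 1.73 for 7SLRNA, -0.34 to 0.52 for tRNA-Lys-AAA, -0.95 to 0.26 for tRNA-Glu-GAA and -0.84 to 1.03 for SSU-rRNA_Hsa; -1.02 to 0.23 for tRNA-Gly-GGG between the 2 differences; and -0.87 to 0.5 for 7SK between media. The spread of 7SK was 0.47 after quantile normalisation. Shares of gene and repeat reads together averaged 8.74% in serum shSetdb1 and 13.4% in serum shScr, and 24.4% in 2i shSetdb1 and 14.7% in 2i shScr, against 48.1% and 44.9% of repeat reads in the 2i groups. The causes were not tested. The robust prior, the gene-table alternatives and the leave-one-out spreads were added after the data were seen.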
